A study of Homo sapiens with 6 samples.

Results

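Autophagy cargo receptors are the proteins that choose what a cell delivers to its lysosomes. A receptor binds a cargo with one part and, with another, the ATG8 proteins (LC3 and GABARAP) that coat the growing autophagosome membrane, so that cargo and membrane are drawn together. The soluble receptors recognise ubiquitin-tagged proteins, damaged organelles or bacteria. The ER-phagy receptors sit in or on the endoplasmic reticulum (ER) and bring pieces of it to the autophagosome, and NCOA4 does the same for the iron store ferritin. The genes described here are 10 such receptors, chosen by symbol: the soluble receptors SQSTM1, NBR1, OPTN, CALCOCO2 and TAX1BP1, the ER-phagy receptors RETREG1, CCPG1, TEX264 and RTN3, and the ferritin receptor NCOA4. All 10 were found among the 58825 genes of the table, each under a single row, and all 10 were among the 19200 genes with enough counts to be tested.

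The cells were PANC-1, an established human pancreatic carcinoma line grown in DMEM with serum. One group of 3 libraries came from cells given 8 µM of a compound labelled CMR for 48 h, and the other group of 3 libraries from control cells (CON). The labels do not say what the compound is and what the control cells received. They also do not tell separate cultures from repeat libraries, so the p-values cover the spread among these 6 libraries alone, and that spread may be technical.

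Library totals ran from 66460535 to 70129221 counts with CMR and from 51147268 to 63811430 in control. The epithelial keratin genes KRT7, KRT8, KRT18 and KRT19 and the mesenchymal vimentin gene VIM were measured in every library. By themselves they do not identify PANC-1. Their summed level was 333 to 533 FPKM (a fragment measure per gene length and depth) with CMR and 1221 to 1330 FPKM in control. KRT7 was scarce, at 0.664 FPKM with CMR and 1.18 FPKM in control, so the sum came almost wholly from the other genes. All 5 fell with CMR, with log2 fold changes of -0.77 for KRT7, -1.85 for KRT8, -0.93 for KRT18, -2.33 for KRT19 and -1.39 for VIM (adjusted p = 0.0474, 0.000983, 0.0194, 0.000152 and 0.000183 by edgeR). The spans of KRT8 and KRT18 overlap on opposite strands, and the part of these falls in the results below was not tested. Markers of other cells were near 0. The 5 adipocyte markers summed to at most 0.083 FPKM with CMR and 0.164 FPKM in control, and LEP had no count in any library. The 4 leukocyte markers summed to at most 0.330 FPKM with CMR and 0.457 FPKM in control, with no count for CD3E. The 3 endothelial markers reached 0.0603 FPKM with CMR and 0.0255 FPKM in control, and the 3 fibroblast markers 0.0282 FPKM with CMR and 0.208 FPKM in control.

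CMR-treated cells held more mRNA for all 5 soluble cargo receptors. Among the ER-phagy receptors CCPG1 rose, TEX264 fell, and RETREG1 and RTN3 did not pass the test. The ferritin receptor NCOA4 did not pass it either, although the mRNAs of both ferritin subunits rose. In all, 7 of the 10 receptors were called by edgeR's quasi-likelihood test at a Benjamini-Hochberg adjusted p under 0.05, 6 higher and 1 lower. Of all tested genes 38.6% were called by the same rule, 20.5% higher and 18.1% lower. In numbers, 3928 genes were higher and 3476 lower, and with upper-quartile scaling 3250 were higher and 4324 lower, while the calls of the receptors stayed the same in number. The median log2 fold change (CMR over control) was 0.81 for the 10 receptors and -0.01 for all tested genes. A called rise of at least 2-fold was found in 3 receptors (SQSTM1, CALCOCO2 and CCPG1), and in 9.87% of all tested genes. The libraries of both groups did not overlap in 7 of the 10 receptors, against 53.9% of all tested genes. In bulk RNA, fewer cells that express a gene and less RNA per cell cannot be told apart.

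**Figure D1:**
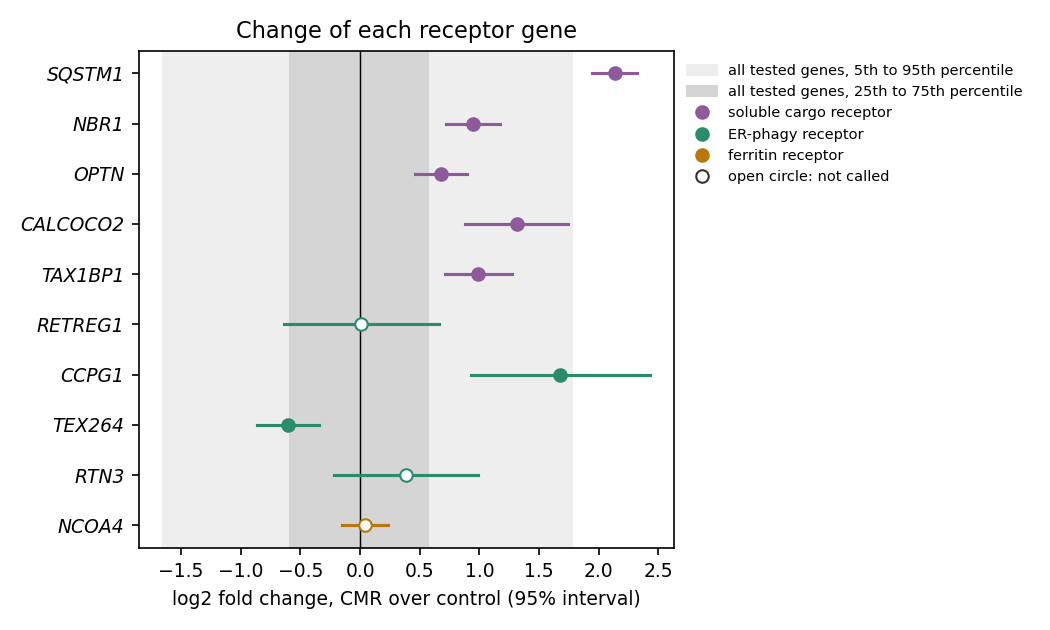
Log2 fold change of each receptor gene, CMR over control, with its 95% interval, from edgeR on 3 libraries per group; filled circles are called at an adjusted p under 0.05, and grey bands show all 19200 tested genes. The 5 soluble receptors lie between 0.68 and 2.13, while the ER-phagy receptors spread from -0.60 for TEX264 to 1.68 for CCPG1.

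SQSTM1 encodes p62, a scaffold that binds ubiquitin chains and LC3, polymerises into condensates and also binds KEAP1, the adaptor that marks the transcription factor NRF2 for destruction. The gene (ENSG00000161011) lies at chr5:179806398-179838078 on the plus strand. Its normalised expression (CPM, counts relative to the effective library size) was 3217, 2803 and 2941 with CMR, against 652, 668 and 721 in control. Every treated library stood far above every control library, and the spread within either group was small beside that gap. On the log2 scale the fold change was 2.13, with a 95% interval from 1.94 to 2.32 (adjusted p = 2.7e-05, edgeR). This was the largest rise of the 10 receptors, and 96.7% of all tested genes had a lower log2 fold change.

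NBR1 encodes a larger relative of p62 with the same kind of ubiquitin-binding and LC3-binding parts, which joins p62 condensates. It lies at chr17:43170481-43211689 on the plus strand (ENSG00000188554). It measured 155, 174 and 192 CPM with CMR, against 89.4, 89.8 and 91.3 CPM in control. The control libraries were nearly equal, and all treated libraries were above them. This gave a log2 fold change of 0.95 ± 0.10 (SE, n = 3 per group; adjusted p = 0.000465, edgeR).

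CALCOCO2 encodes NDP52, which recruits the autophagy machinery to bacteria and damaged mitochondria and recognises them through galectins or ubiquitin. It lies at chr17:48830988-48866522 on the plus strand (ENSG00000136436). It measured 293, 280 and 418 CPM with CMR, against 114, 129 and 155 CPM in control. The groups were apart, and 1 treated library, replicate 3, stood above both others. CALCOCO2 had a log2 fold change of 1.31 ± 0.18 (SE; 95% interval 0.88 to 1.75; adjusted p = 0.00159, edgeR), next in size to SQSTM1 among the soluble receptors. Its interval lay wholly below that of SQSTM1.

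TAX1BP1 encodes a receptor of the same family as NDP52 that clears ubiquitin-tagged and aggregated proteins. It lies at chr7:27739331-27844564 on the plus strand (ENSG00000106052). It measured 475, 634 and 609 CPM with CMR, against 282, 303 and 278 CPM in control. The lowest treated library was above the highest control library. The log2 fold change was 0.99 ± 0.12 (SE; adjusted p = 0.000836, edgeR).

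OPTN encodes optineurin, a ubiquitin-binding receptor of mitophagy and of bacterial clearance whose LC3 binding is strengthened by the kinase TBK1. It lies at chr10:13099449-13138308 on the plus strand (ENSG00000123240). It measured 119, 108 and 108 CPM with CMR, against 68.8, 65.3 and 75.01 CPM in control. This was the smallest rise of the soluble receptors, with groups that did not overlap (log2 fold change 0.68 ± 0.09 SE, adjusted p = 0.0015, edgeR).

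Among the ER-phagy receptors, CCPG1 moved most. It encodes a membrane protein of the ER that binds both the ATG8 proteins and FIP200 of the autophagy initiation complex, and that draws ER with luminal protein aggregates to autophagosomes. It lies at chr15:55340032-55408510 on the minus strand (ENSG00000260916). It measured 83.4, 106 and 125 CPM with CMR, against 18.8, 46.2 and 33.1 CPM in control. The groups did not overlap, but both spread widely, most of all the control libraries. The log2 fold change was 1.68 with a 95% interval from 0.93 to 2.43 (adjusted p = 0.00566, edgeR), and it ran from 1.40 without control replicate 1 to 2.01 without control replicate 2. The span of CCPG1 overlaps that of PIGB on the other strand, with 5.0% of the exon bases of CCPG1 in common. PIGB had a log2 fold change of 0.41 (adjusted p = 0.0365, edgeR).

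TEX264 was the receptor that fell. It encodes a single-pass ER membrane protein with a long flexible tail that reaches LC3 across the layer of ribosomes. It lies at chr3:51662693-51704323 on the plus strand (ENSG00000164081). It measured 19.9, 17.3 and 18.2 CPM with CMR, against 28.6, 27.3 and 28.0 CPM in control. All treated libraries were below all control libraries, with little spread in either group. The log2 fold change was -0.60 ± 0.11 (SE; 95% interval -0.86 to -0.34; adjusted p = 0.00493, edgeR). The upstream part of its span overlaps RAD54L2 on the same strand, with 3.2% of the exon bases of TEX264 in common. RAD54L2 went the other way (log2 fold change 0.37, adjusted p = 0.0305, edgeR).

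RTN3 encodes a reticulon, a hairpin protein that bends ER tubules, and its long form is a receptor for the breakdown of those tubules. It lies at chr11:63681446-63759891 on the plus strand (ENSG00000133318). It measured 249, 303 and 157 CPM with CMR, against 137, 195 and 212 CPM in control. The groups overlapped, since CMR replicate 3 lay below 2 of the control libraries. The log2 fold change was 0.38 with a 95% interval from -0.22 to 0.99 (adjusted p = 0.287, edgeR). Without CMR replicate 3 it was 0.60 (adjusted p = 0.0636, edgeR) and without CMR replicate 2 it was 0.16 (adjusted p = 0.678, edgeR). The values count all forms of RTN3 together, so the long form could not be followed by itself. A processed copy, RTN3P1, had 3.42% of the mean count of RTN3.

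RETREG1, also named FAM134B, encodes a receptor with a reticulon-like hairpin domain that breaks up ER sheets. It lies at chr5:16473038-16617038 on the minus strand (ENSG00000154153). It was the scarcest of the 10 receptors, with 2.06, 2.47 and 1.36 CPM with CMR, against 2.01, 1.96 and 1.88 CPM in control. Behind these values stand 89 to 168 counts in a treated library and 104 to 123 counts in a control library. The control libraries lay within the range of the treated ones. The log2 fold change of 0.01 had a 95% interval from -0.64 to 0.66 (adjusted p = 0.981, edgeR), which leaves room for a change of that size in either direction.

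NCOA4 encodes the receptor that carries ferritin to lysosomes, where its iron is released. It lies at chr10:46005088-46030714 on the minus strand (ENSG00000266412). It measured 270, 301 and 287 CPM with CMR, against 265, 270 and 297 CPM in control. The groups overlapped almost fully, and the interval around no change was narrow (log2 fold change 0.04, 95% interval -0.15 to 0.24, adjusted p = 0.71, edgeR).

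**Figure D2:**
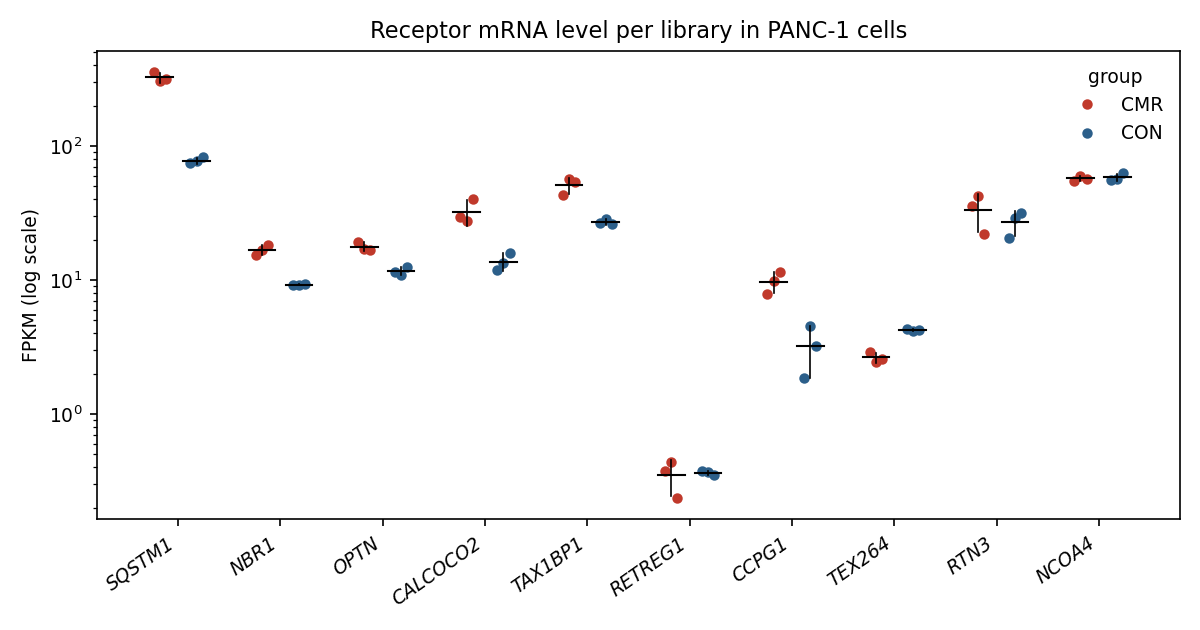
FPKM of each receptor gene in each library on a log axis, with CMR in red and control in blue; horizontal lines are group means and vertical lines the SD of 3 libraries. SQSTM1 is the highest receptor in both groups, and the groups overlap for RETREG1, RTN3 and NCOA4.

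Levels of different genes were compared in FPKM, which is scaled to gene length. With CMR, SQSTM1 had the highest level of the 10 receptors, at 324 ± 28.0 FPKM, against 77.9 ± 3.98 FPKM in control (SD, n = 3 each). NCOA4 followed with 57.3 FPKM with CMR and 58.6 FPKM in control. With CMR, NCOA4 overlapped with TAX1BP1 (51.0 FPKM), RTN3 (33.4 FPKM) with CALCOCO2 (32.3 FPKM), and OPTN (17.8 FPKM) with NBR1 (16.9 FPKM), so those neighbours had no clear order. CCPG1 (9.72 FPKM), TEX264 (2.64 FPKM) and RETREG1 (0.349 FPKM) came last and stood apart from each other. In control the order was the same down to NBR1, but there TAX1BP1 (27.1 FPKM) overlapped with RTN3 (27.0 FPKM) and CALCOCO2 (13.7 FPKM) with OPTN (11.7 FPKM). NBR1 had 9.25 FPKM in control, and TEX264 (4.23 FPKM) was above CCPG1 (3.21 FPKM) by less than the spread of their libraries.

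The make-up of the receptor mRNA differed between the groups. The summed level of the 10 receptors was 566, 536 and 536 FPKM with CMR, against 217, 234 and 248 FPKM in control. SQSTM1 held 63.0, 56.5 and 58.6% of that sum with CMR, against 34.4, 32.8 and 33.2% in control. At the gene lengths used for FPKM, SQSTM1 outweighed the other 9 receptors together in each treated library and in no control library. The share of NCOA4 was 10.5 ± 0.723% with CMR and 25.2 ± 0.748% in control (SD, n = 3 each), while its own level was about the same in both.

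**Figure D3:**
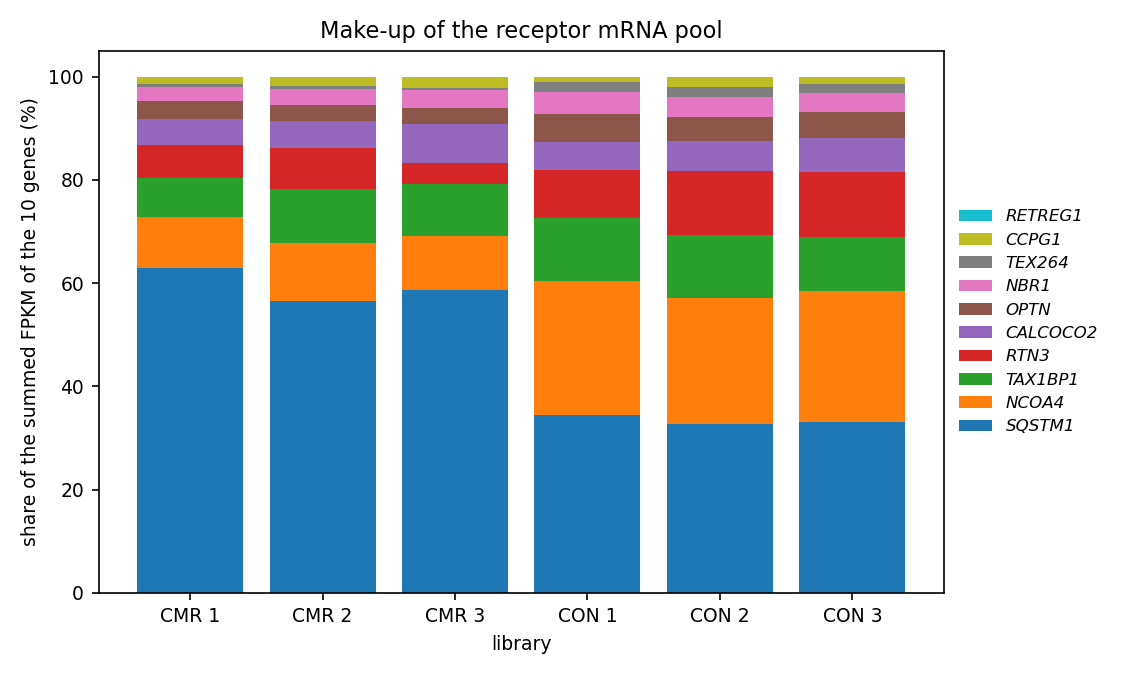
Share of the summed FPKM of the 10 receptor genes taken by each gene in each library, as stacked bars; RETREG1, at 0.0440 to 0.173%, is too thin to see. The SQSTM1 share is 56.5 to 63.0% with CMR and 32.8 to 34.4% in control.

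Without SQSTM1 the other 9 receptors summed to 209, 233 and 222 FPKM with CMR, against 142, 158 and 166 FPKM in control. The 4 ER-phagy receptors summed to 47.0, 55.3 and 36.1 FPKM with CMR, against 27.0, 38.2 and 39.2 FPKM in control, and these sums, which are mostly RTN3, overlapped. The level of CCPG1 was 2.73, 3.99 and 4.46 times that of TEX264 with CMR, against 0.425, 1.10 and 0.766 times in control. The level of SQSTM1 was 23.1, 18.0 and 17.1 times that of NBR1 with CMR, against 8.14, 8.31 and 8.82 times in control. Neither ratio overlapped between the groups. For CCPG1 and TEX264 this follows from their separate groups and opposite directions, so it adds nothing to their calls. How often other pairs of genes have ratios without overlap was not counted.

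The promoters of the genes were read as context, in windows from 250 bases before to 50 bases after an annotated start (RefSeq, GRCh38.p14). All 10 genes matched, with 17 windows between them. The windows were searched on both strands for TGATGNAA (the composite site of ATF4 and C/EBP factors), TGACNNNGC (the core of the antioxidant response element), CACGTG (the E-box), TCACGTGA (the longer element of lysosomal genes, which contains the E-box), TGACGTGG (a site of ATF6 and XBP1) and the ER stress response element with its fixed spacer. Of these, 4 windows are shown because they belong to the receptors with the largest rise (SQSTM1), the largest rise and the fall among ER-phagy receptors (CCPG1 and TEX264), and to the 1 receptor that rose and held a match (CALCOCO2). The capitals in the CALCOCO2 window mark the match to TGACNNNGC, read on the opposite strand. The windows are chr5:179820655-179820954 (plus, the third of 3 for SQSTM1), chr15:55408310-55408609 (minus), chr3:51671002-51671301 (plus) and chr17:48830785-48831084 (plus).
SQSTM1: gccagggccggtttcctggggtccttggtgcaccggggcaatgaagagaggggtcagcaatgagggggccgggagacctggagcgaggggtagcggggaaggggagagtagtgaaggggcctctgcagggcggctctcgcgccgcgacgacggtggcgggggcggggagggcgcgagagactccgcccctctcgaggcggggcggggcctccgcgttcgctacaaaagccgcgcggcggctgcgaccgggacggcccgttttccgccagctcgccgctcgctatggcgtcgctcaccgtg
CCPG1: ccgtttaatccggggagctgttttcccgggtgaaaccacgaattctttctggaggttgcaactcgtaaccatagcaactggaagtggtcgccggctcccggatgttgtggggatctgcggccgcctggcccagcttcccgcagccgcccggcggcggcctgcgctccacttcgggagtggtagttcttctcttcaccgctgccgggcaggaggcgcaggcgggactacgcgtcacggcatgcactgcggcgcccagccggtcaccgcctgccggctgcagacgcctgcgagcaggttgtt
TEX264: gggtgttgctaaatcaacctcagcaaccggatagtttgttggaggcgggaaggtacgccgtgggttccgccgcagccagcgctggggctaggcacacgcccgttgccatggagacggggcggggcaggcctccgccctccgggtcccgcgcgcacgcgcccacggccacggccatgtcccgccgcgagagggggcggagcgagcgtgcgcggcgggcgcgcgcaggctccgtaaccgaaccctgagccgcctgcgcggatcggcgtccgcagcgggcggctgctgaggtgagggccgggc
CALCOCO2: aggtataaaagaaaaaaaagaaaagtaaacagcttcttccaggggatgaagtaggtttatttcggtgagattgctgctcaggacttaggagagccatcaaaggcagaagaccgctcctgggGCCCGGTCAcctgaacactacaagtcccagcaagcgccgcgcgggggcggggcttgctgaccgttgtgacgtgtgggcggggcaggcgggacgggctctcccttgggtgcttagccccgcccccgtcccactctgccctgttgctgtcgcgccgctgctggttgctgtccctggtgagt

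TGACNNNGC was found in 4 of the 17 windows, 1 each of CALCOCO2, NCOA4, RETREG1 and RTN3, and in 13.3% of all 35116 windows. Of these genes only CALCOCO2 rose. TGATGNAA was in none of the 17 windows and in 3.62% of all windows, CACGTG in none and in 7.26%, and TCACGTGA in none and in 0.98%. TGACGTGG was in none and in 0.729% of all windows, and the ER stress response element in none and in 0.0769%. A window without a match says only that these letters are not in it, and the sites of these genes may lie elsewhere. The windows shown are rich in G and C, with 73.0% for SQSTM1, 66.0% for CCPG1, 74.3% for TEX264 and 59.7% for CALCOCO2, against a median of 58.7% over all windows.

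Receptors act through partners, and 61 other genes of selective autophagy were read from the same test. Of these, 58 were tested, 30 rose, 4 fell and 24 were not called, with a median log2 fold change of 0.50. The share that rose stood beside 20.5% of all tested genes and the share that fell beside 18.1%. The lists were chosen with earlier results of these data known and are described by their counts.

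**Figure D4:**
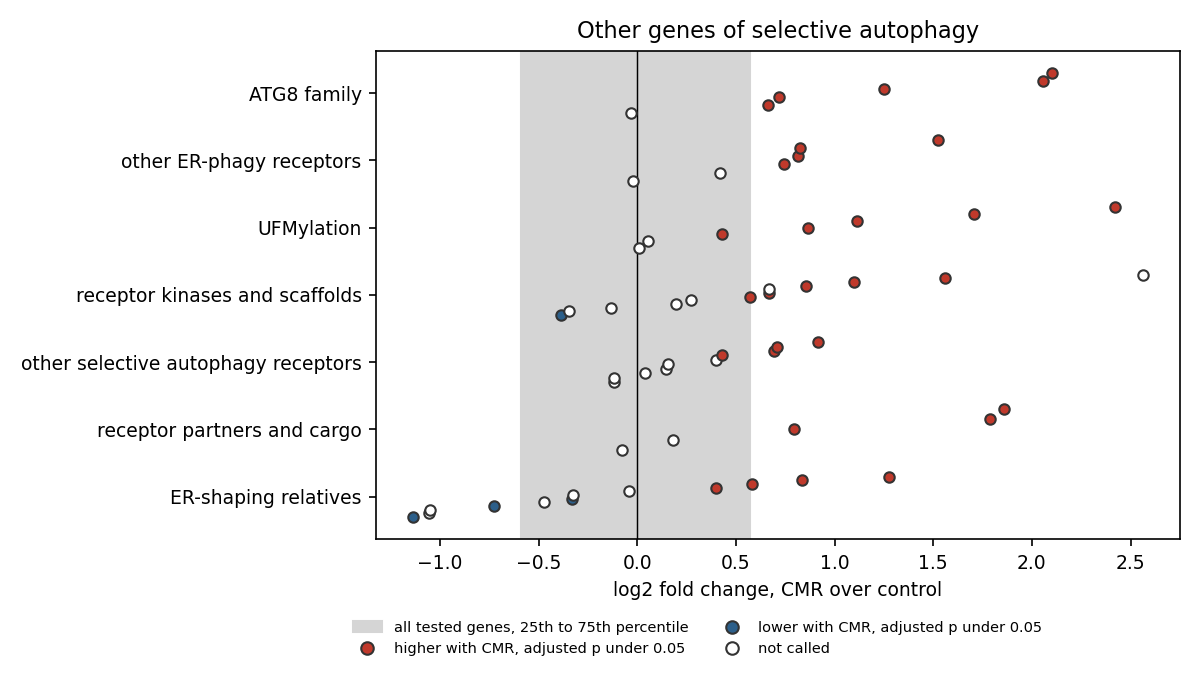
Log2 fold change, CMR over control, of every tested gene in 7 lists of other selective autophagy genes; red is higher and blue lower with CMR at an edgeR adjusted p under 0.05, white is not called, and the grey band holds the 25th to 75th percentile of all tested genes. Only the ER-shaping relatives and the receptor kinases and scaffolds have a lower call, and the ER-shaping relatives lie on both sides of 0.

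The ATG8 proteins are docking points on the membrane for receptors of selective autophagy. Of the 7 genes, 5 rose, none fell, GABARAPL2 was not called and MAP1LC3C had too few counts to be tested. MAP1LC3B, the gene of the most used LC3 protein, measured 46.2, 50.1 and 56.1 FPKM with CMR, against 19.7, 9.86 and 9.16 FPKM in control. All treated libraries were above the control libraries, of which replicate 1 was the highest (log2 fold change 2.06 ± 0.30 SE, adjusted p = 0.00181, edgeR). Its near-identical copy MAP1LC3B2 had a log2 fold change of 2.10 (adjusted p = 0.000277, edgeR), which was 1.28 on the log2(FPKM + 1) scale, and reads of both may have been split between them. The span of MAP1LC3B also overlaps that of FBXO31 on the other strand. GABARAPL1, the closest relative of GABARAP, averaged 20.2 ± 0.639 CPM with CMR and 8.48 ± 2.88 CPM in control (SD, n = 3 each; log2 fold change 1.25, adjusted p = 0.00584, edgeR). GABARAP rose by 0.66 on the log2 scale (adjusted p = 0.00703, edgeR). GABARAPL2 averaged 34.0 CPM with CMR and 34.8 CPM in control (log2 fold change -0.03, adjusted p = 0.814, edgeR). MAP1LC3A was scarce, at 3.63 CPM with CMR and 2.21 CPM in control, with a log2 fold change of 0.72 (adjusted p = 0.0259, edgeR). That call was lost under 8 alternatives, among them upper-quartile scaling (adjusted p = 0.0524), testing all genes with any count (adjusted p = 0.0552), and the fits without CMR replicate 2 or 3 or any control replicate. Over all alternatives its log2 fold change ran from 0.43 to 0.78 and its adjusted p from 0.00615 to 0.0841.

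Of 6 other ER-phagy receptors 4 rose and none fell, with a median log2 fold change of 0.78. CALCOCO1, a soluble relative of NDP52 that binds ER membrane proteins, measured 4.08, 4.44 and 5.99 FPKM with CMR, against 1.39, 1.99 and 1.93 FPKM in control. The groups were well apart (log2 fold change 1.53 ± 0.21 SE, adjusted p = 0.0014, edgeR). RETREG3, a relative of RETREG1 whose span overlaps that of the more abundant TUBG1 on the other strand, rose by 0.83 on the log2 scale (adjusted p = 0.00407, edgeR). It had 5.86 FPKM with CMR and 3.49 FPKM in control, so both groups held more of it than of RETREG1. SEC62 and CDK5RAP3 were the other risers, while ATL3 and RETREG2 were not called. The span of RETREG2 overlaps that of CNPPD1 on the other strand.

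The UFMylation list holds the small modifier UFM1 and genes that attach it to ribosomes on the ER or remove it, a system that takes part in ER-phagy. Of 7 genes 5 rose and none fell, with a median log2 fold change of 0.87. UFM1 itself measured 41.7, 54.7 and 62.2 FPKM with CMR, against 10.1, 10.8 and 10.4 FPKM in control. Its log2 fold change of 2.42 ± 0.16 (SE, adjusted p = 0.000107, edgeR) was close to that of SQSTM1, and the control libraries were almost equal. UFC1 and UFSP1 were not called.

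Of 12 kinases and scaffolds that act on or with the receptors 5 rose and 1 fell, with a median log2 fold change of 0.62. ULK1, the kinase that starts autophagosome formation, measured 12.8, 10.4 and 8.84 FPKM with CMR, against 3.84, 3.74 and 3.86 FPKM in control (log2 fold change 1.56, adjusted p = 0.000262, edgeR). RB1CC1, which encodes FIP200, the partner bound by CCPG1 and p62, averaged 204 ± 56.2 CPM with CMR and 95.3 ± 7.08 CPM in control (SD, n = 3 each; log2 fold change 1.10, adjusted p = 0.00495, edgeR). ULK2, the close relative of ULK1, had the fall (log2 fold change -0.38, adjusted p = 0.0447, edgeR). That call was lost in 7 of 16 alternatives, among them 5 that left out 1 library (CMR replicate 1 or 3, or any control replicate), with adjusted p from 0.0151 to 0.153.

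Receptors of mitochondria and of other cargoes rose in 4 of 10 genes and fell in none, with a median log2 fold change of 0.28. BNIP3L, a mitophagy receptor of the outer mitochondrial membrane, averaged 115 ± 16.6 CPM with CMR and 61.0 ± 3.02 CPM in control (SD, n = 3 each; log2 fold change 0.92, adjusted p = 0.00135, edgeR). BCL2L13, another receptor there, had a log2 fold change of 0.71 (adjusted p = 0.00143, edgeR). The 14 ER-shaping relatives, which bend or link ER membranes much as RTN3 and RETREG1 do, went both ways. Of the 12 tested, 4 rose and 3 fell, with a median of -0.33, beside 20.5% higher and 18.1% lower over all tested genes. Most of the uncalled genes had negative log2 fold changes and were scarce, with group means of 0.0962 to 1.27 FPKM. The median therefore leans on low counts. The number that rose was 2 with upper-quartile scaling. Leaving out CMR replicate 2 or 3, or control replicate 1 or 2, also gave 2. CKAP4, a spacer protein of ER sheets, averaged 263 ± 7.59 CPM with CMR and 109 ± 1.37 CPM in control (log2 fold change 1.28, adjusted p = 6.2e-05, edgeR). ARL6IP1, a hairpin protein of ER tubules, averaged 374 ± 29.2 CPM with CMR and 823 ± 35.9 CPM in control (log2 fold change -1.14, adjusted p = 0.000147, edgeR). REEP4, which keeps ER off mitotic chromosomes, rose by 0.84 on the log2 scale (adjusted p = 0.00518, edgeR). REEP3, its close relative, had a log2 fold change of -0.72 (adjusted p = 0.00101, edgeR), and its span overlaps that of the more abundant JMJD1C.

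The partners and cargoes of single receptors were read last. NFE2L2, the gene of NRF2, measured 50.9, 48.1 and 53.2 FPKM with CMR, against 31.5, 31.5 and 29.6 FPKM in control (log2 fold change 0.79, adjusted p = 0.000379, edgeR). KEAP1, which p62 binds, measured 24.0, 14.5 and 14.3 FPKM with CMR, against 18.7, 14.9 and 15.4 FPKM in control. Its groups overlapped, and its log2 fold change of 0.18 ± 0.21 (SE) was not called (adjusted p = 0.532, edgeR).

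Both ferritin genes rose, while their receptor NCOA4 was not called. FTH1, the heavy subunit that NCOA4 binds, measured 910, 823 and 811 FPKM with CMR, against 233, 242 and 303 FPKM in control (log2 fold change 1.79 ± 0.11 SE, adjusted p = 9.0e-05, edgeR). FTL, the light subunit, had a log2 fold change of 1.86 (adjusted p = 7.6e-05, edgeR). The summed ferritin level was 61.3, 46.2 and 54.4 times that of NCOA4 with CMR, against 15.3, 14.7 and 16.3 times in control. Processed copies of the ferritin genes had little of the count, with 25 listed copies of FTH1 at 1.94% of its mean count and 16 of FTL at 0.0674%, although reads of copies may have been counted for the genes themselves. HERC2, the ubiquitin ligase that limits NCOA4 protein, had 171 CPM with CMR and 181 CPM in control and was not called (log2 fold change -0.08, adjusted p = 0.535, edgeR).

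The genes whose pattern over the 6 libraries was most like that of SQSTM1, by Euclidean distance between centred log2 CPM values among 9542 genes of at least 10 CPM, were ME1, SLC3A2 and KLHL24. ME1, malic enzyme, was at a distance of 0.152, with a log2 fold change of 2.19. SLC3A2, the heavy chain of several amino acid transporters, was at 0.167, with 2.13. KLHL24, a ubiquitin ligase adaptor, was at 0.191, with 2.09. The measure covers 6 libraries in 2 groups, so genes of like fold change and small spread come first.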

How the data were processed

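The 6 PANC-1 libraries were poly(A)-selected and read from both ends, per the labels' protocols, which also speak of adipose tissue, unlike the other labels. In the deposited table every gene has a count and an FPKM value per library. The count values are whole numbers without normalisation, and no source used here says how the authors counted. The authors' FPKM values are relative to length and library size, per the file headers. After 1 factor per library, FPKM per count varied by under 0.02 log2 in 97.1% of 11766 genes with at least 100 counts in every library, 9 receptors among them, so for these genes FPKM follows the count at 1 fixed length. RETREG1 had too few counts for this check. HISAT2 2.0, StringTie 1.3.0, Bowtie 0.12.2 and mm8, a mouse build, are in the submitters' processing notes. Since the identifiers are human and 9 of the 10 receptor genes have the span of GENCODE 29, coordinates are given as GRCh38. No column lacked a sample (0 columns).

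Counts were tested with edgeR 4.0.16 in R 4.3.3 (TMM scaling, filterByExpr with minimum count 10 and minimum total 15, quasi-likelihood test, Benjamini-Hochberg adjustment over 19200 genes). The SE is the log2 fold change divided by the root of the F statistic. The scripts were tested on simulated counts. Alternatives were other scalings, filters, DESeq2 1.42.0, limma 3.58.1 on log2(FPKM + 1), log2(FPKM + 0.1) and log2(TPM + 1), a replicate block, and leaving out each library. The receptors, the lists and the promoter motifs were chosen with earlier results of these data known. Genes named are the 10 receptors, all ATG8 genes and partners, up to 2 called genes with the largest rise and 2 with the largest fall per other list, and 3 genes most like SQSTM1 in pattern. SEC62, CDK5RAP3, ATL3, RETREG2, UFC1 and UFSP1 are named outside that rule, chosen after their values were seen. REEP2 and LNPK are also outside it, named because their calls changed with the replicate block. The values of 1 gene that the rule takes are not reported here. Overlapping genes are given where they hold at least 10% of a named gene's mean count, and strand was not used. Library totals and 3 libraries per group set the precision. Figures were drawn with matplotlib 3.10.9.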

Additional observations from a re-analysis of the deposited data

How the results depend on the processing

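All 156 values of the 10 receptors under the alternatives kept their side of the threshold, and every called receptor kept its direction. RETREG1 had no value where genes under 1 FPKM were left out. The uncalled log2 fold changes ran from -0.19 to 0.21 for RETREG1 and from -0.09 to 0.10 for NCOA4, on both sides of 0. Those of RTN3, also uncalled throughout, ran from 0.16 to 0.60 and stayed above 0. Of 540 values of the receptors and of the list genes that the naming rule takes, 15 lost their call, 8 of MAP1LC3A and 7 of ULK2. Genes named outside that rule and the genes most like SQSTM1 are not among these values. The number of receptors higher was 6 to 6 and lower 1 to 1 when each library was left out in turn. For the other selective autophagy genes these numbers were 25 to 31 higher and 2 to 4 lower, with 2 lower without control replicate 1 or without control replicate 2, and over all genes 3154 to 3977 higher and 2506 to 3734 lower. With upper-quartile scaling the median over all genes shifted by -0.13 (log2), with 3250 higher and 4324 lower, against 3928 and 3476. With the replicate number as a block, 6 receptors were higher, 1 was lower, and 3582 genes were higher and 3155 lower. Among listed genes the block gained the calls of RETREG2 (log2 fold change 0.43, adjusted p = 0.0289, edgeR) and REEP2, and lost those of MAP1LC3A (adjusted p = 0.061, edgeR), ULK2 and LNPK. The labels do not say that the numbers pair the libraries. Deviations of same-numbered libraries from their group means correlated with r = 0.0265, 0.0333 and 0.0432, each the best match of its library. Deviations within a group cancel out, so these values constrain each other, and r this small cannot decide on pairing. RETREG1 had the fewest counts of the receptors, 89 to 168 with CMR and 104 to 123 in control.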
